A study of Homo sapiens with 10 samples.

Results

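The distal end of the long arm of chromosome 8, taken as chr8:100000000-146364022 of hg19, carries MYC and PVT1 and was examined for H3K4me1, the monomethylated form of lysine 4 of histone 3, and for binding of HER2. Every H3K4me1 island and every HER2 peak within these borders was included, which gave 6073 of 328910 islands and 976 of 43001 peaks. The stretch is 46.36 Mb long and makes up 1.64% of the mapped genome. The cells were SKBR3 and BT474, established human breast cancer lines in which ERBB2, the gene of the receptor HER2, is amplified. H3K4me1 was mapped by ChIP-seq in 2 replicates per line. Their labels say asynchronous cells, whereas the study describes the cells as treated with EGF, and this could not be settled. HER2 was mapped by ChIP-exo, in which an exonuclease trims the precipitated DNA, in cells given water as vehicle or EGF at 100 ng/ml for 3 hours without removal of serum, with 1 list per line and treatment. All groups of a line came from the same culture medium, McCoys 5A for SKBR3 and RPMI-1640 for BT474, so line and medium cannot be told apart. The HER2 antibody was the same product in both lines, in different lots.

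MYC is a transcription factor that drives growth and division, and the region around it is among the most often gained in breast cancer. The MYC gene lies between long stretches without other protein-coding genes, where noncoding RNA genes such as CASC19, CASC8, CASC11 and PVT1 overlap enhancers that act on MYC. H3K4me1 marks active and primed enhancers, usually as short stretches, and a long unbroken stretch can also arise where the sample holds more copies of the DNA. Copy number was not analysed here.

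The islands are described by cover, the percentage of a region's bases that lie in islands, and by density, the reads per kb of island. Density was divided by the library's own median over 1532 bins of 1 Mb, so that 1 is a typical place in that library. The median was 43.8 and 42.2 reads per kb in the SKBR3 replicates and 55.7 and 46.9 in those of BT474. The reads in islands came, in units of 1000000 reads, to 15.6 and 15.3 in SKBR3 and to 18.7 and 15.1 in BT474. These are reads within called islands, which also depend on enrichment and calling, and total depth was not analysed here. Among genes used to check the lines, ERBB2 had a scaled density of 4.58 and 4.65 in SKBR3 and of 6.47 and 6.36 in BT474. Islands covered 2.40% and 3.54% of PGR, which encodes the progesterone receptor, in SKBR3 and 88.6% and 86.6% in BT474. KRT8, a luminal keratin gene, was covered over 67.5% and 61.8% in SKBR3 and over 62.6% and 63.4% in BT474, and KRT18 over 17.1% and 0% in SKBR3 and over 51.8% and 61.7% in BT474. ESR1, the oestrogen receptor gene, was covered over 19.7% and 18.8% in SKBR3 and over 26.3% and 27.3% in BT474.

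Distal 8q held 5.94% and 6.05% of the island reads of the SKBR3 replicates, and 2.97% and 2.96% of those of BT474. The SKBR3 values lay above both BT474 values, with replicates that differed little. Cover of the whole stretch was close in the lines, at 18.1% and 18.6% in SKBR3 and 17.9% and 17.2% in BT474, and above the 9.75% to 10.6% of the genome in all 4 libraries. The same cover was cut up differently. The SKBR3 replicates listed 868 and 856 islands there and the BT474 replicates 2236 and 2113. The median island was 3400 bp wide in both SKBR3 replicates, against 2400 and 2600 bp in BT474. Islands of at least 100 kb numbered 13 in each SKBR3 replicate, of 24 and 25 in the whole genome, and 0 in each BT474 replicate, of 24 and 23. The island with the most reads in the genome lay in PVT1 in both SKBR3 replicates, with 74914 and 77119 reads. Of the 20 islands richest in reads, 11 were on distal 8q in each SKBR3 replicate and 0 in each BT474 replicate.

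H3K4me1 density was far from even along distal 8q in SKBR3 and nearly flat in BT474. A bin of 1 Mb was called dense when its scaled density was at least 2 in both replicates of a line, with at least 50 kb of cover in both. In SKBR3, 10 of the 27 bins with enough cover were dense, where 1.11% of the 1705 such bins of the genome were. They were the bins starting at 116, 117, 118, 119, 120, 121, 123, 124, 128 and 129 Mb, and they are 10 of the 19 dense bins of this line. In BT474, 0 of the 43 bins with enough cover were dense, where 0.676% of 1922 bins in the genome were. Scaled density over those 43 bins ran from 0.996 to 1.52 in replicate 1 and from 0.984 to 1.46 in replicate 2. The highest BT474 bin, starting at 102 Mb, holds GRHL2, a transcription factor of epithelia, and had 1.05 and 1.06 in SKBR3. Next in BT474 came the bins at 135, 101, 129 and 134 Mb, with means of 1.35, 1.35, 1.31 and 1.31.

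The bin that starts at 128 Mb and holds MYC had a scaled density of 4.70 and 4.85 in SKBR3 and of 1.31 and 1.28 in BT474. It ranked number 2 of 1705 bins in SKBR3. The bin starting at 116 Mb, with TRPS1, ranked number 3, at 4.56 and 4.24 in SKBR3 and 1.27 and 1.27 in BT474. The bin starting at 121 Mb, with MTBP and SNTB1, ranked number 4, at 3.93 and 4.26 against 1.09 and 1.14. In these bins every SKBR3 value was above every BT474 value, and the replicates of a line differed far less than the lines. Just inside the threshold, the bin starting at 118 Mb had 2.28 and 2.50 in SKBR3. Just outside, the bin starting at 125 Mb had 1.93 and 1.99, and that at 115 Mb had 2.09 and 2.02 with only 2.74% and 2.66% of its bases covered.

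**Figure D1:**
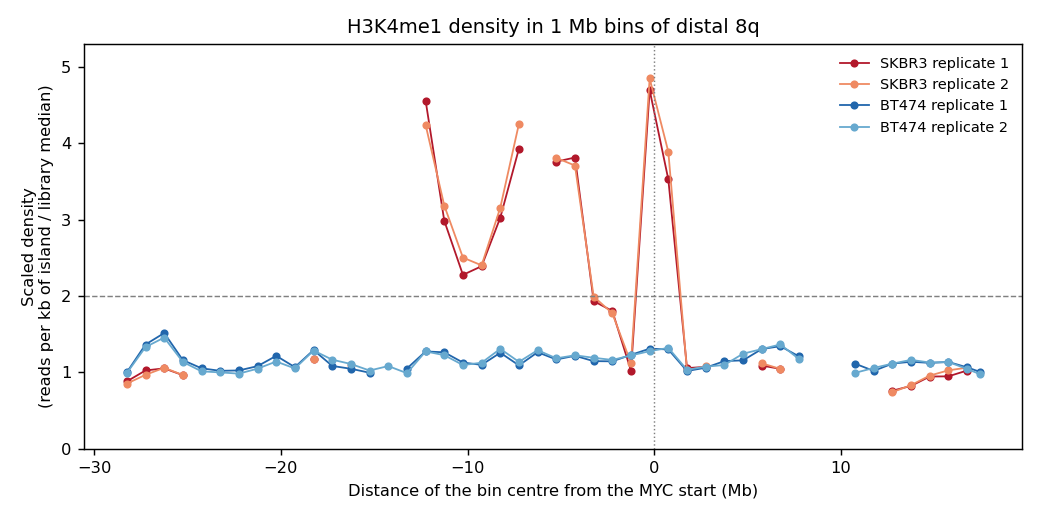
Scaled H3K4me1 density (reads per kb of island divided by the library median, linear axis) in 1 Mb bins of distal 8q, placed by the distance of the bin centre from the MYC start; each point is 1 bin of 1 replicate, bins with under 50 kb of cover are left out, and the dashed line marks 2. Both SKBR3 replicates stand above 2 in 10 bins and reach 4.70 and 4.85 at MYC, while both BT474 replicates stay at or below 1.52.

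The lines were compared bin by bin with edgeR's quasi-likelihood test, fitted over the 1532 bins of the genome that had at least 50 kb of cover in all 4 libraries. Of the 47 bins of distal 8q, 27 could be tested. Density was higher in SKBR3 in 12 of them and higher in BT474 in 12, and 3 gave no call at an adjusted p of 0.05. Over the genome 70.9% of bins were called, 35.5% higher in SKBR3 and 35.4% higher in BT474, so a call by itself says little about 8q. The sizes differed. A difference of at least 2-fold in favour of SKBR3 was called in 10 of the 27 bins, where 1.11% of bins in the genome had one, and at least 2-fold in favour of BT474 in 0, where 0.261% had one. The median difference was 0.01 on the log2 scale over the 27 bins and 0.00 over all bins tested.

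The 12 bins higher in SKBR3 differed by 0.63 to 1.88 in log2 density, with a largest adjusted p of 3.7e-86 in edgeR. Those higher in BT474 differed by -0.57 to -0.13, with a largest adjusted p of 3.07e-05. The 5 largest differences were 1.88 at 128 Mb, 1.88 at 121 Mb, 1.79 at 116 Mb, 1.69 at 123 Mb and 1.62 at 124 Mb, and standard errors over the 27 bins were 0.0284 to 0.0409. On the linear scale the bin with MYC was 3.69-fold denser in SKBR3. The bins higher in BT474 began at 100, 101, 102, 103, 110, 127, 134, 135, 141, 142, 143 and 144 Mb, outside the dense bins. The lowest, at 141 Mb, holds PTK2, which encodes focal adhesion kinase. The labels do not say whether replicates were separate cultures, so these p-values measure the spread between libraries, pooled over bins, which may be technical.

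Cover also differed between the lines, with a pattern of its own. In limma, over the same 1532 bins, cover was higher in SKBR3 in 14 of the 27 bins and in BT474 in 13. Over the genome 50% and 29.3% of bins were so called, so SKBR3 did not stand out in number of bins on 8q. The differences in favour of SKBR3 were 4.22 to 43.6 percentage points and lay mainly in the dense bins. Of the 10 dense bins, 9 had more cover in SKBR3. In the bin starting at 117 Mb islands covered 78.0% and 76.0% of the bases in SKBR3 and 32.8% and 33.9% in BT474. At 124 Mb the values were 67% and 74.7% against 28.8% and 27.0%, and at 128 Mb 59.7% and 58.8% against 29.6% and 28.9%. In each of these bins the SKBR3 cover was above that of both BT474 replicates. Density and cover pointed the same way in 11 bins higher in SKBR3 and in 11 higher in BT474.

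The exception among the dense bins starts at 129 Mb, where islands covered 19% and 18.8% in SKBR3 and 25.5% and 23.4% in BT474, a difference of -5.52 points (adjusted p = 0.000136 in limma). Its density was nonetheless 3.53 and 3.89 in SKBR3 and 1.30 and 1.32 in BT474, with a log2 difference of 1.5. That call rests on the long island that enters the bin within PVT1. When each island was counted only in the bin of its midpoint, the difference turned to -0.35 (adjusted p = 3.22e-12 in edgeR).

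Outside the dense bins cover was lower in SKBR3 than in BT474 when the bins were pooled, although not in every bin. Together the dense bins were covered over 44.4% and 44.9% in SKBR3 and over 24.8% and 23.9% in BT474, and the remaining bins over 10.9% and 11.3% against 16.1% and 15.3%. Bins outside the dense set with more cover in SKBR3 were those starting at 125, 126, 130, 131 and 134 Mb, led by 125 Mb with 58.6% and 60.6% against 26.4% and 23.2%. At 125 and 126 Mb density was also higher in SKBR3, by 0.75 and 0.63 on the log2 scale. The dense bins held 76.1% and 75.8% of the SKBR3 island reads of distal 8q, and 30.6% and 31.0% of those of BT474. There were 6 bins, starting at 105, 106, 113, 122, 138 and 139 Mb, with 0 bases in islands in both SKBR3 replicates, and 0 such bins in BT474. A further contrast was at 141 Mb, where islands covered 8.34% and 8.0% in SKBR3 and 46.7% and 43.9% in BT474. In 16 bins both BT474 replicates and neither SKBR3 replicate reached 50 kb of cover, and in 0 bins the reverse. These bins could not enter the test above. When bins with 50 kb in any library were tested, an alternative added after the data were seen, 14 of 44 bins had more cover in SKBR3 and 30 in BT474, where the genome had 43.8% and 39.9%.

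**Figure D2:**
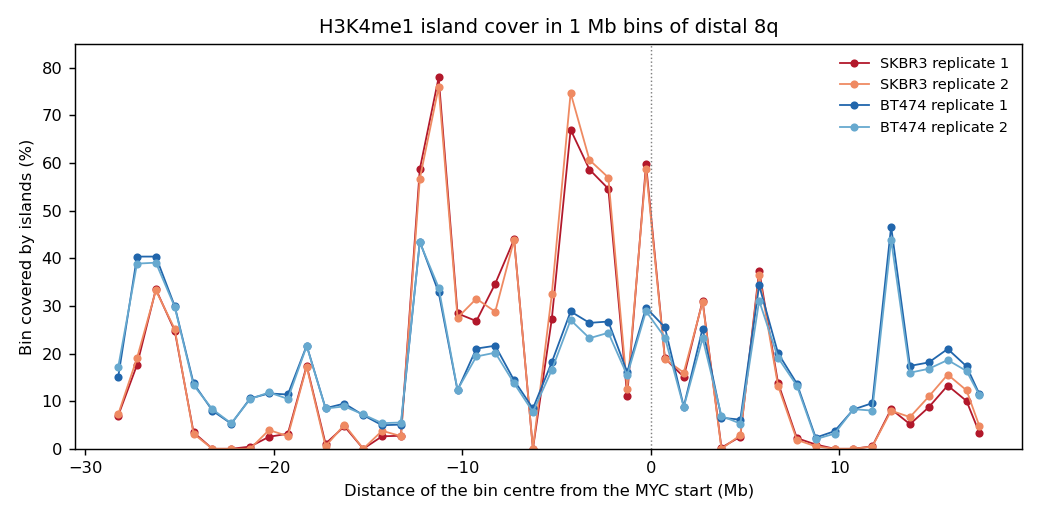
Percentage of each 1 Mb bin covered by H3K4me1 islands, by distance of the bin centre from the MYC start; each point is 1 bin of 1 replicate. Cover in SKBR3 reaches 78.0% in a dense bin and 0% in 6 bins, and stays below BT474 in most bins far from MYC.

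The edges of the dense stretches were located on bins of 100 kb, by change points in the mean log2 scaled density of each line. Bins with under 5 kb of cover in a replicate used were left out. Runs can span such bins, and the lengths given include them. SKBR3 had 3 dense runs, from 116.2 to 120.3 Mb, from 120.9 to 124.8 Mb and from 127.9 to 129.1 Mb, 9.2 Mb in all. Each replicate alone gave the same 3 runs. Some edges border on bins that were left out and are placed only within that gap. The piece before the first run ended at 115.1 Mb and the piece after it began at 120.6 Mb. The piece before the third run ended at 127.8 Mb. BT474 formed a lone piece over the whole stretch with a mean of 1.13 and had 0 dense runs. With other settings BT474 was divided further, into 3 pieces with bins of 50 kb, 5 with bins of 200 kb (means of 0.97 to 1.36) and 6 with the penalty halved, with 0 dense runs in each.

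The first run opened at a mean scaled density of 3.06 and rose to 5.84 between 116.7 and 117.1 Mb, over the start of TRPS1, a GATA-type repressor of mammary epithelium. From 117.1 to 119.5 Mb the mean was 2.52 over 17 bins, and from 119.5 to 120.3 Mb 4.06 over 3 bins. It closed beside MAL2, which encodes a membrane protein of apical transport in epithelia. No protein-coding gene lay within 100 kb of its opening. The gap to the next run, at a mean of 1.64 from 120.6 to 120.9 Mb, is narrow and holds TAF2, a subunit of the TFIID complex, and DSCC1, which helps to load the replication clamp.

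The second run opened at DEPTOR, an inhibitor of the mTOR kinase, and had a mean of 3.79 up to 124.8 Mb. That mean rests on 19 bins of 100 kb over 3.9 Mb. The 1 Mb bin starting at 122 Mb, inside this run, had 0 bases in islands in both SKBR3 replicates. The run closed within FAM91A1, past the annexin gene ANXA13, with FER1L6 within 100 kb. Beyond it, from 124.9 to 126.7 Mb, the mean was 1.77, below the threshold but above the 0.92 of the next piece. This shoulder holds SQLE, NSMCE2 and TRIB1. Upstream of all runs, from 100 to 112.4 Mb, the mean was 0.97.

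The third run held the genes around MYC. It opened at 127.9 Mb with a mean of 2.69, reached 5.23 from 128.4 to 129.1 Mb and fell to 1.05 beyond. In 100 kb bins the scaled density was 0.846 and 0.823 in the SKBR3 replicates at 127.7 to 127.8 Mb, and 2.11 and 2.18 at 127.9 to 128 Mb. Islands covered only 5.6% and 17.6% of that opening bin. No protein-coding gene lay within 100 kb of either edge. The edges moved with the settings used. With bins of 50 kb there were 4 runs of 9.75 Mb in all, with bins of 200 kb 2 runs of 11.2 Mb, and with a doubled penalty 2 runs of 11.6 Mb. With 200 kb bins and with the doubled penalty the first pair merged and its opening moved from 116.2 to 114.8 and 114.4 Mb.

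The distal edge of the third run cut through PVT1, a noncoding RNA gene at chr8:128806772-129199347 on the plus strand. Up to 129.1 Mb its scaled density was 5.88 and 6.13 in SKBR3 and 1.41 and 1.37 in BT474. Beyond 129.1 Mb, in the same gene, it was 1.17 and 1.76 in SKBR3 and 1.51 and 1.47 in BT474. The lines stood apart before the edge and overlapped after it. In SKBR3 replicate 1 the long island ran from 128807801 to 129097000 at 259 reads per kb, and the next, from 129097801 to 129106400, had 64.3. In replicate 2 it ran from 128807601 to 129105600 at 259 reads per kb, and the next had 51.3. The 2 replicates thus ended their long island 8.6 kb apart. Reads were spread evenly within an island, so density is flat inside it and the drop lies where it ends. No step of this kind was called in BT474, whose islands at this place were at most 27.6 kb wide and had at most 98.8 reads per kb.

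**Figure D3:**
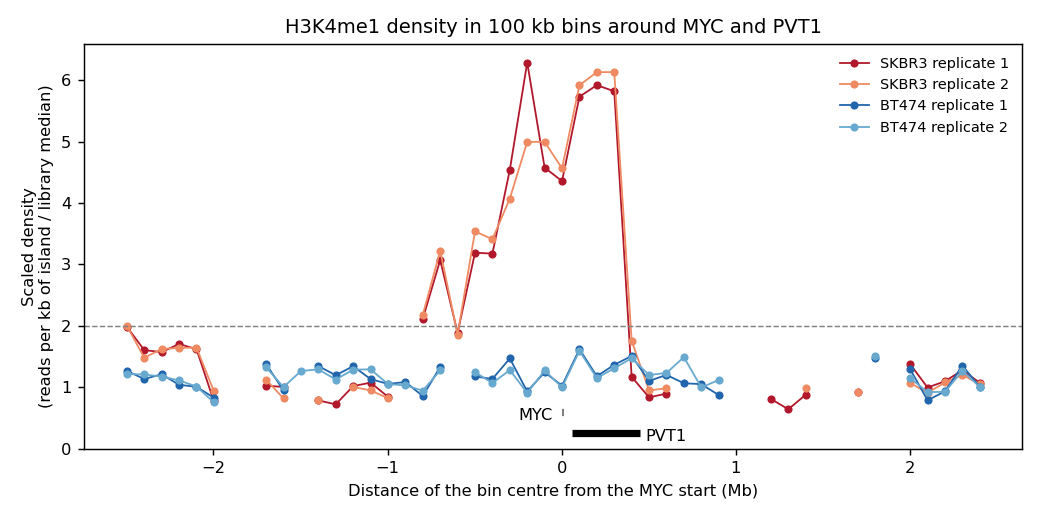
Scaled H3K4me1 density in 100 kb bins around MYC and PVT1 (black bars), by distance of the bin centre from the MYC start; each point is 1 bin of 1 replicate, bins with under 5 kb of cover are left out, and the dashed line marks 2. Both SKBR3 replicates climb toward MYC, stay high over the first part of PVT1 and drop to the BT474 level before the gene ends.

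MYC itself, at chr8:128747680-128755197 on the plus strand, lay wholly within islands in both SKBR3 replicates (100% of the gene body), and over 57.4% in both BT474 replicates. In SKBR3 the gene sat inside a long island, from 128643201 to 128764000 in replicate 1 and from 128554201 to 128764400 in replicate 2. Over the gene body the scaled density was 4.68 and 4.99 in SKBR3 and 1.1 and 1.04 in BT474. Reads were spread evenly over each island, so the SKBR3 values are means of whole islands, 120.8 and 210.2 kb wide. They are not reads counted at MYC itself. The BT474 islands at the MYC start were 4.2 and 3 kb wide. Over the gene with 10 kb to either side, the window used for all genes, it was 4.68 and 4.99 against 0.88 and 0.89. The log2 difference was 2.45 ± 0.0592 (adjusted p = 1.13e-12 in edgeR over 12150 genes), the largest of distal 8q. The value after ± here and below is the SE of that fit (n = 2 per line), with spread pooled over genes. PVT1 differed by 1.89 ± 0.0299 (adjusted p = 4.57e-14 in edgeR), from 5.10 and 5.38 in SKBR3 and 1.42 and 1.39 in BT474. For PVT1 this average spans both sides of the edge. CASC11, a noncoding gene antisense to MYC, shared the SKBR3 island with it and had the same SKBR3 density, so its difference of 2.34 is not a separate observation.

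Of the 230 protein-coding genes of distal 8q, 159 had at least 2 kb of cover in every library and could be tested. Density was higher in SKBR3 at 45 of them and in BT474 at 52, and 62 gave no call. The count in BT474 was 32 without BT474 replicate 1 and 29 on gene bodies alone, and within 5 kb of the start the counts were 28 and 29. Over all genes 18.2% were higher in SKBR3 and 18.9% in BT474, and on distal 8q it was 28.3% and 32.7%. A difference of at least 2-fold in favour of SKBR3 was called at 30 genes, or 18.9%, where 1.07% of all genes tested had one. The median over the 159 was -0.12 on the log2 scale, beside -0.01 over all genes tested. The 3 runs, which were drawn from the SKBR3 density itself, overlapped 33 protein-coding genes, of which 29 were tested, all 29 were higher in SKBR3 and 25 were so by at least 2-fold. Outside the runs 16 of 130 were higher in SKBR3 and 52 in BT474. Neighbouring genes often share an island and are not separate observations.

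**Figure D4:**
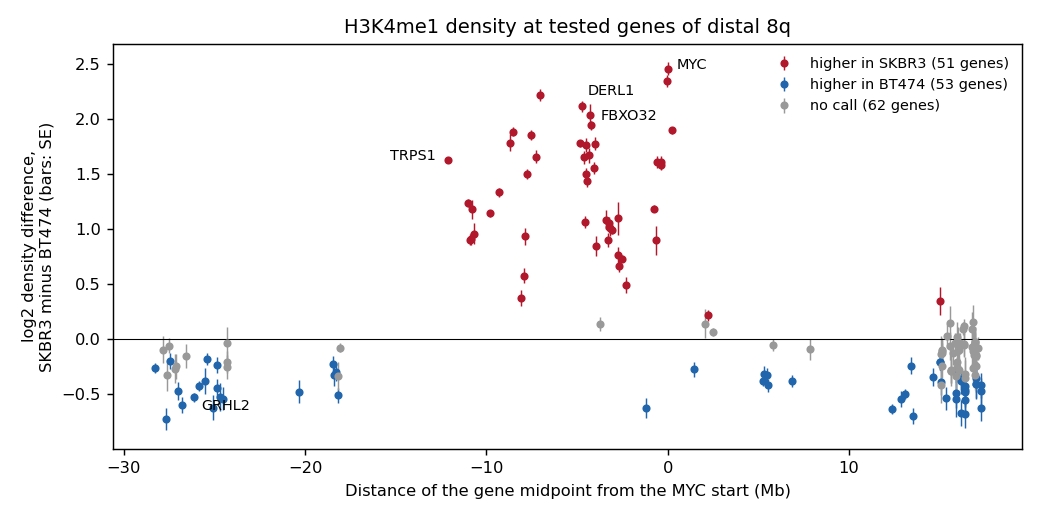
Log2 difference in H3K4me1 density, SKBR3 minus BT474, at 166 tested genes of distal 8q (protein-coding genes and the listed noncoding genes), by distance of the gene midpoint from the MYC start. Points are fitted differences and bars their standard errors, from the edgeR fit of 2 replicates per line with spread pooled over genes. The 51 genes higher in SKBR3, with MYC the highest at 2.45, lie between TRPS1 and PVT1 except CYRIB and LY6K, and the 53 higher in BT474 lie outside that stretch except LRATD2, exceptions that were named after their values were seen.

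Among 15 genes of the MYC locus and its flanks, 10 were higher in SKBR3, 2 higher in BT474, 2 gave no call and ADCY8 was not tested. Of the tested genes this is 71.4% and 14.3%, beside 28.3% and 32.7% of the protein-coding genes of distal 8q. Several of the 10 overlap each other or share an island, and most lie in the run drawn from SKBR3 density. They are therefore not separate observations. The noncoding genes upstream of MYC carry enhancers and sites linked to cancer risk. Their log2 differences were 0.90 at PRNCR1, 1.61 at CASC19 and 1.58 at CASC8, and POU5F1B, a retrogene related to POU5F1, had 1.60. Density of PCAT1 was higher by 1.19 over its window, although within 5 kb of its start it was lower, at -0.57 (adjusted p = 0.00398 in edgeR). Its start lies upstream of the dense run. LRATD2, at the start of PCAT1, had -0.62. On the far side, CCDC26 had -0.27 and CYRIB, a regulator of the actin cytoskeleton, 0.22 over its window and -0.52 within 5 kb of its start. GSDMC at 0.14 (adjusted p = 0.436) and ASAP1 at 0.06 (adjusted p = 0.215 in edgeR) gave no call. TRIB1, a pseudokinase gene of the shoulder, was higher by 0.49.

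The lists that follow hold few tested genes, so their counts are given as a description beside the 28.3% and 32.7% of distal 8q. Genes of DNA replication, repair and cohesion were higher in SKBR3 at 4 of 7, with 1 higher in BT474. MTBP, which helps origins to fire, had a scaled density of 3.45 and 3.63 in SKBR3 and of 1.04 and 1.21 in BT474. ATAD2, a bromodomain cofactor, had 3.56 and 3.08 against 1.08 and 1.01. These give log2 differences of 1.66 and 1.67. RAD21, the cohesin subunit that closes the ring, was higher by 0.91 and NSMCE2, a SUMO ligase of the SMC5/6 complex, by 0.73. RRM2B, a subunit of ribonucleotide reductase outside the runs, was lower by -0.38 (adjusted p = 0.0211 in edgeR). This call was lost without SKBR3 replicate 1 (adjusted p = 0.147), without BT474 replicate 1 (0.0798) or 2 (0.0768), and within 5 kb of the start (0.0758 in edgeR). RECQL4 at -0.24 and TONSL at -0.05 gave no call.

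In translation and ribosome assembly 2 of 5 tested genes were higher in SKBR3 and 2 in BT474. EIF3H, a subunit of the initiation factor eIF3, had 2.84 and 2.82 in SKBR3 against 1.22 and 1.18 in BT474, and UTP23, needed for the small ribosomal subunit, was higher by 0.90. PABPC1, the cytoplasmic poly(A) binding protein, was lower by -0.47 and EEF1D, a subunit of an elongation factor, by -0.30. The call of EEF1D was lost without SKBR3 replicate 1 (adjusted p = 0.0849) or BT474 replicate 1 (0.135 in edgeR), in limma (0.0686) and in both other windows. DCAF13 at -0.25 gave no call, and EIF3E, MRPL13 and BOP1 were not tested.

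Of 7 tested transcription factors 2 were higher in each line. TRPS1 had 3.82 and 3.78 in SKBR3 and 1.24 and 1.23 in BT474, a log2 difference of 1.62 ± 0.0264 (adjusted p = 4.57e-14 in edgeR). ZHX2, a homeobox repressor, was higher by 1.78. GRHL2 had 1.09 and 1.11 in SKBR3 and 1.61 and 1.56 in BT474, a difference of -0.53 ± 0.0396 (adjusted p = 2.81e-07 in edgeR). KLF10, induced by TGF-beta, was lower by -0.62. HSF1, FOXH1 and MAF1 gave no call.

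In the ubiquitin pathway 3 of 6 tested genes were higher in SKBR3, all by at least 2-fold, and 3 higher in BT474. DERL1, a part of the channel that removes misfolded proteins from the endoplasmic reticulum, had 4.43 and 4.32 in SKBR3 and 1.03 and 0.989 in BT474, a difference of 2.11. FBXO32, a ubiquitin ligase adaptor of muscle wasting, had 6.05 and 5.93 against 1.53 and 1.59. RNF139, a ligase of the endoplasmic reticulum, was higher by 1.05. The ligase RNF19A at -0.20, and SHARPIN at -0.42, a subunit of the linear ubiquitin chain complex, were among those higher in BT474. RNF19A lost its call without SKBR3 replicate 2 (adjusted p = 0.439) or BT474 replicate 1 (0.161) or 2 (0.0697 in edgeR), in limma (0.192) and in both other windows. SHARPIN lost its call without SKBR3 replicate 1 (0.137) or BT474 replicate 1 (0.0696) or 2 (adjusted p = 0.0946 in edgeR) and on the gene body.

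Of 14 signalling genes 8 could be tested, with 2 higher in SKBR3 and 6 in BT474. DEPTOR had 3.02 and 3.32 in SKBR3 and 1.13 and 1.11 in BT474, and ENPP2, which makes lysophosphatidic acid, was higher by 0.38. PTK2 had 0.756 and 0.761 in SKBR3 and 1.09 and 1.05 in BT474. YWHAZ, a 14-3-3 protein, was lower by -0.60, the angiopoietin ANGPT1 by -0.47, NDRG1 by -0.42, and CCN4 and SLA by -0.32 each. Within 5 kb of its start NDRG1 gave 0.10 (adjusted p = 0.68 in edgeR), so its difference depends on the window. SLA lost its call without BT474 replicate 2 (adjusted p = 0.0576 in edgeR), SLA and CCN4 lost theirs on gene bodies, and ANGPT1 in limma (adjusted p = 0.0629). The metabolic genes NDUFB9, of respiratory complex I, and SQLE, of cholesterol synthesis, were higher in SKBR3 by 1.01 and 0.77. CYC1, of respiratory complex III, was lower by -0.46, a call lost without SKBR3 replicate 1 (adjusted p = 0.0856) or BT474 replicate 2 (0.0674 in edgeR). Within 5 kb of the start CYC1 and SQLE gave no call (adjusted p = 0.138 and 0.599 in edgeR). GPT and DGAT1 gave no call among the 5 tested of 8.

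Of 14 genes used mainly in other tissues, 11 could not be tested for want of cover, 9 of them with 0 bases in SKBR3 islands. COLEC10, a lectin of the liver that lies in the first run, was higher in SKBR3 by 1.78, and SLC30A8, a zinc transporter of pancreatic islets, by 0.96. Islands covered 28.2% of the COLEC10 gene body in SKBR3 replicate 1 and 0% in replicate 2, whose value comes from the 10 kb flanks alone. In BT474 they covered 15.8% and 13.3% of it. TG, the thyroglobulin gene, was higher in BT474, at -0.38. A dense run did not carry islands everywhere. MED30, TNFRSF11B, MRPL13 and HAS2 overlapped the runs and had 0 bases in islands in both SKBR3 replicates, whereas in BT474 islands covered 58.5% and 52.6% of MRPL13, a gene of the mitochondrial ribosome, and 49.2% and 34.3% of TNFRSF11B, the decoy receptor osteoprotegerin. The study removed regions where the input of the line was high. The part of that step in these zeros, and in the bin starting at 122 Mb, was not tested.

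By size of the difference, the top 3 genes of distal 8q in favour of SKBR3 were MYC, CASC11 and SNTB1, a syntrophin gene. SNTB1 had 4.08 and 4.43 in SKBR3 and 0.965 and 0.868 in BT474, a difference of 2.21. In favour of BT474 they were RGS22 at -0.73, SLC45A4 at -0.70 and a gene with no symbol in the annotation at -0.68. Of the genes at the edges, MAL2 was higher in SKBR3 by 1.88, ANXA13 by 1.77, DSCC1 by 0.93, FAM91A1 by 0.84 and TAF2 by 0.58, and FER1L6 at 0.14 gave no call (adjusted p = 0.111 in edgeR).

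HER2 peaks did not follow the H3K4me1 density. Distal 8q held 28 of 2596 SKBR3 vehicle peaks, 33 of 2520 SKBR3 EGF peaks, 230 of 8559 BT474 vehicle peaks and 685 of 29326 BT474 EGF peaks. As a share of the list this is 1.08% (95% Wilson interval 0.747% to 1.55%), 1.31% (0.934% to 1.83%), 2.69% (2.37% to 3.05%) and 2.34% (2.17% to 2.52%). The SKBR3 vehicle interval lies below the 1.64% that distal 8q takes of the genome, the SKBR3 EGF interval includes it, and both BT474 intervals lie above it. The intervals cover counting error only, and with 1 list per condition no test compares lines or treatments. With an equal number of peaks per list, the 2520 of highest score, the shares were 1.03%, 1.31%, 3.33% and 3.49%. Per Mb there were 0.604 peaks in SKBR3 vehicle, 0.712 in SKBR3 EGF, 4.96 in BT474 vehicle and 14.8 in BT474 EGF.

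The 3 dense runs held 0 of the 28 SKBR3 vehicle peaks and 0 of the 33 SKBR3 EGF peaks, which allows up to 0.326 peaks per Mb in each list. In BT474 the same 9.2 Mb held 37 vehicle peaks and 116 EGF peaks, or 4.02 and 12.6 per Mb. By whole bins, the 10 dense bins held 1 vehicle and 1 EGF peak in SKBR3, both in the bin starting at 129 Mb and beyond the edge of the run, and 48 and 130 in BT474. The other bins held 0.742 and 0.880 SKBR3 peaks per Mb and 5.00 and 15.3 BT474 peaks per Mb. The rate in BT474 was thus close inside and outside of the bins that were dense in SKBR3.

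The longest stretch of distal 8q without a SKBR3 peak in either list ran from 112.4 to 126.6 Mb, over 14.3 Mb. It was number 6 in the genome by length, and the longest elsewhere was 22.2 Mb. The same stretch held 63 BT474 vehicle and 183 BT474 EGF peaks, and 140 and 135 H3K4me1 islands in the SKBR3 replicates. It spans both of the first dense runs and also the sparse bins before them. The 9 dense SKBR3 bins elsewhere in the genome held 1 vehicle and 2 EGF peaks, or 0.111 and 0.222 per bin against 1.1 and 1.04 in the other bins. In BT474 the 13 dense bins, all outside distal 8q, held 10 and 34 peaks, or 0.769 and 2.62 per bin against 3.29 and 11.3. In each list, then, dense bins of the line held fewer peaks per bin than its other bins. Before depositing the lists the authors left out places where the input of the line itself was high, and the part of that step in these counts was not tested.

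**Figure D5:**
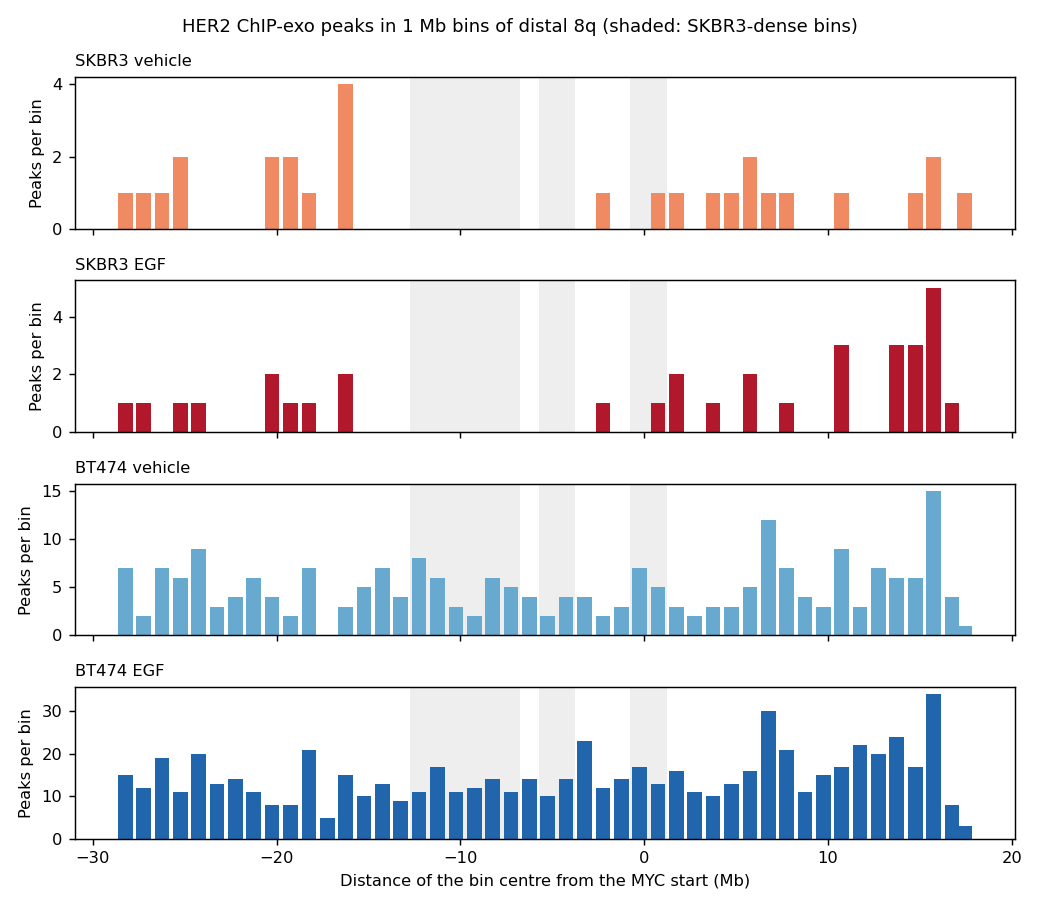
HER2 ChIP-exo peaks per 1 Mb bin of distal 8q in each list, by distance of the bin centre from the MYC start; bars are counts, each panel has its own axis from 0, and grey marks the 10 bins dense in H3K4me1 in SKBR3. The SKBR3 panels show 1 peak each in grey bins, and the BT474 panels show 48 and 130.

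In no list did the share of HER2 peaks of distal 8q in H3K4me1 islands exceed the share of bases in islands. In SKBR3 3 of 28 vehicle peaks and 4 of 33 EGF peaks overlapped an island of either replicate, or 10.7% (3.71% to 27.2%) and 12.1% (4.82% to 27.3%), where islands of the line covered 20.5% of the bases. In BT474 it was 45 of 230 vehicle peaks and 137 of 685 EGF peaks, or 19.6% (15% to 25.2%) and 20% (17.2% to 23.2%), where islands covered 20.2%. The BT474 shares are near the base cover, and the SKBR3 intervals are too wide to tell them from it. In the rest of the genome the shares were 18.9% and 17.5% in SKBR3 and 15.3% and 13.9% in BT474. Islands of each library covered 9.75% to 10.6% of the genome, which is below their cover of distal 8q. Cover by islands of either replicate was not computed outside distal 8q, so these shares have no matching base share. When SKBR3 replicate 2 was left out the shares in that line were 3.57% for vehicle and 6.06% for EGF.

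Sharing between lists was uneven. Of the 33 SKBR3 EGF peaks 31 overlapped a BT474 EGF peak by at least 1 bp, or 93.9%, and the 30 BT474 EGF peaks they met were 4.38% of that list on distal 8q. Of the 28 SKBR3 vehicle peaks 6 overlapped a SKBR3 EGF peak, or 21.4%, and these were 18.2% of the 33. Of the 230 BT474 vehicle peaks 214 overlapped a BT474 EGF peak, or 93.0%, and these were 31.2% of the 685. In the rest of the genome the 3 shares were 84.6%, 12.9% and 91.2% of the list named first. Merged over lists there were 716 sites, of which 492 were in 1 list, 195 in 2, 23 in 3 and 6 in all 4. The BT474 EGF list alone supplied 462 of the sites found in 1 list, and SKBR3 vehicle alone supplied 14.

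The 6 sites in all 4 lists lay in VPS13B, ANKRD46 and COL22A1, and nearest to ATP6V1C1, CSMD3 and ADGRB1. None was in a dense run. The score is the number given by the authors with each peak and was compared only within a list. The highest score of distal 8q in both SKBR3 lists lay 18.9 and 18.8 kb from ADGRB1, which encodes an adhesion receptor of the brain, at chr8:143645032-143645602 with a score of 103 in vehicle and at chr8:143644613-143645729 with 1226.5 in EGF. These were number 21 of 2596 and number 20 of 2520. In both BT474 lists it lay in ANKRD46, with a score of 702.5 in vehicle and 1052 in EGF, numbers 10 and 17. The second SKBR3 vehicle peak, with a score of 80, at chr8:126626340-126626706, 176 kb from TRIB1, closed the long stretch without SKBR3 peaks, lay in islands of both SKBR3 replicates and was in no other list. The remaining top peaks were nearest to TRHR and CSMD3 in SKBR3 EGF, in ANKRD46 in SKBR3 vehicle, near ATP6V1C1 in BT474 vehicle, and in RIMS2 and near ADGRB1 in BT474 EGF.

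At MYC and PVT1 HER2 peaks came almost entirely from BT474, as did those of the whole region examined. That region held 28 vehicle and 33 EGF peaks in SKBR3, and 230 and 685 in BT474. Whether the locus differs from the rest of the region in this was not tested. A BT474 EGF peak at chr8:128753824-128754070, with a score of 162.5, lay in an exon and untranslated region of MYC, 6.27 kb from its start. It overlapped islands in both replicates of both lines. In PVT1 there were 3 BT474 vehicle peaks and 6 EGF peaks, and the site at 128851791 to 128852105 was in both BT474 lists, with scores of 197.5 and 94. The PVT1 peak of SKBR3, from the EGF list, lay at chr8:129195152-129195351 with a score of 209.5, beyond the edge where the H3K4me1 density dropped, and was also in the BT474 vehicle list at a score of 45. It overlapped islands in both SKBR3 replicates and in 0 BT474 replicates. SKBR3 vehicle had 0 peaks within 10 kb of MYC, CASC11 or PVT1.

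For each HER2 peak, both strands were searched for the sequence CGTNTGC, where N is any base, at up to 50 bp from the midpoint. It was there in 1 of 28 SKBR3 vehicle peaks (interval 0.633% to 17.7%), 3 of 33 SKBR3 EGF peaks (3.14% to 23.6%), 28 of 230 BT474 vehicle peaks (12.2%, interval 8.56% to 17.0%) and 47 of 685 BT474 EGF peaks (6.86%, 5.20% to 9.0%). In windows of the same length 1 kb away it was in 0, 0, 4 and 8. In the rest of the genome the shares at peaks were 3.47%, 12%, 12% and 7.49%, and each lay within the interval of distal 8q for that list. A match is a description of the sequence and not proof of a binding site.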

How the data were processed

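H3K4me1 was mapped in 2 replicates per line and HER2 in 1 list per condition, grouped by the labels. The 2 input samples have no list and were left out. The study's methods state that reads were mapped to hg19, reads of low mapping quality were removed, peaks were called with MACS2 and islands with SICER against input of the line, and blacklisted regions and regions of high input signal were removed. The submitters' processing notes name BWA 0.5.9, MACS 1.4.1 and SICER 1.1 instead for mapping and calling, and the labels (asynchronous) and the study (EGF-treated) differ on the H3K4me1 cells. Neither difference could be settled. Island files as deposited give a count of reads per island, without scaling. HER2 files as deposited give a score per peak, in increments of 0.5 on an unstated scale, and no depth.

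Island reads were split over bins in proportion to overlap. Differences were tested with edgeR 4.0.16 (quasi-likelihood, offset of island length times library median; R 4.3.3) and cover with limma 3.58.1, with Benjamini-Hochberg adjustment over all bins or genes. The spread was pooled over bins or genes. Edges came from least-squares change points with at least 3 bins per piece and a penalty of 3 times the noise variance times the log of the number of bins. The gene models were those of GENCODE 44 lifted to GRCh37. The listed genes CCAT1 and TMEM75 had no match. Named genes were MYC, PVT1, the listed genes, protein-coding genes within 100 kb of an edge, genes of the 5 densest and 5 most different bins, those at the 3 top HER2 peaks per list and the 3 most different genes each way. PGR, KRT8, KRT18, ESR1 and ERBB2 checked the lines. Members and lists were chosen with earlier results of these data known. On simulated data for the density test, 100% of 200 bins changed 2-fold were recovered among 1532, and 0.6% of unchanged bins were called. The simulated spread was a fixed value not estimated from the libraries. This checks the fit and says nothing about spread between cultures. Sequences of distal 8q are not printed here.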

Additional observations from a re-analysis of the deposited data

How the results depend on the processing

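Limits of depth: HER2 lists give no reads and SKBR3 has only 28 and 33 peaks here, so differences between its lists are not resolved, and 20 of the 47 bins and 71 of 230 protein-coding genes had too few island bases for a test. Against 12 bins higher in each line, 500 kb bins gave 22 in SKBR3 and 22 in BT474 (of 49 tested), 2 Mb bins 7 and 6 (of 14), and no cover filter 20 in BT474. Scaling by total reads moved the median of all bins to -0.13 and the share of calls higher in SKBR3 from 50.1% to 18.8%, and left 12 and 14 calls on distal 8q, with the bins at 130 and 131 Mb turning to -0.11 and -0.12. At 145 Mb the difference of -0.02 was 0.0107 on bases covered in all 4 libraries (added after the data were seen) and -0.15 with total reads. It ran from -0.0439 to 0.00838 on leaving out a library, the highest without SKBR3 replicate 1. Fits without the length offset compare reads per bin, not per kb of island. They gave -0.80 (edgeR with TMM scaling) and -0.78 (DESeq2) at 145 Mb, and 0.65 and 0.66 at 130 Mb. Over distal 8q they ran from -3.23 to 3.32 and from -3.22 to 3.34, against -0.57 to 1.88. Midpoint assignment turned the bin at 129 Mb to -0.35. With 50 kb in any library, added likewise, 30 bins had more cover in BT474. For genes, a window of 5 kb around the start gave 28 higher in SKBR3 and 29 in BT474, gene bodies alone 29 in BT474, and leaving out a library 32 to 55 in BT474, with 32 without BT474 replicate 1. Signs turned within 5 kb of the start for PCAT1 (-0.57), CYRIB (-0.52), ASAP1 (-0.17) and NDRG1 (0.10), for DCAF13 on the gene body (0.00824), and on leaving out a library for GSDMC (-0.0118 to 0.336), TONSL (-0.144 to 0.0592) and HSF1 (-0.25 to 0.0869). Dense SKBR3 bins were 16 at 500 kb. Dense runs came to 9.75, 11.2 and 11.6 Mb, the first run opened at 114.8 Mb with 200 kb bins and 114.4 Mb with the penalty doubled, the run with MYC opened at 128 Mb with 200 kb bins and closed at 129.15 or 129.2 Mb with 50 or 200 kb bins. Equal numbers of peaks gave 3.33% and 3.49% of the BT474 lists, and sharing of 63.6% (SKBR3 EGF in BT474 EGF), 63.1% (BT474 vehicle in EGF) and 60.2% (BT474 EGF in vehicle). Over the whole peak the sequence sought was in 19.6% and 11.7% of BT474 vehicle and EGF peaks. Leaving out a library gave 3.57% to 10.7% of SKBR3 vehicle peaks in islands, 6.06% to 12.1% of SKBR3 EGF peaks and 16.2% to 17.5% of BT474 EGF peaks. Replicate numbers did not pair the samples (correlation of deviations -0.00691 over bins), and a replicate block gave 12 and 12 bins and 46 and 59 genes. Of 457 gene values over 61 genes, 409 kept direction and side of the threshold, 33 lost the call, 6 gained it and 9 turned, and of 373 bin values over 27 bins 360 kept both, 8 gained a call and 5 turned. The causes were not tested.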
